A study of Drosophila melanogaster with 2 samples.

Results

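Binding of kay, the Drosophila Fos protein, was described at 10 genes of the ecdysone response out of the 13945 protein-coding genes on the main chromosome arms. The genes were EcR, usp, Eip75B, Eip74EF, br, Hr4, Hr38, Hr39, Eip78C and ftz-f1. They were picked by name with the peak lists of the same libraries already known, so their numbers of peaks, signals and ranks are given as a description and were not tested. A region was taken as belonging to a gene when its summit lay in the gene or within 3 kb of either end. This gave 31 of the 3860 peaks of the authors' list thresholded by the irreproducible discovery rate (IDR) procedure, which sets how many regions to keep from how well replicates rank them alike. A peak in that list need not be strong in each replicate.

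The libraries came from chromatin immunoprecipitation with sequencing (ChIP-seq) of whole Drosophila melanogaster embryos aged 0 to 24 h, of pooled sexes. All embryos carried a transgene of kay fused at its C-terminus to GFP, and the antibody was against GFP. Chromatin was sheared by sonication to fragments of 200 to 800 bp. There was 1 group with 2 biological replicates, numbered 2 and 4 in the labels, and no treated, hormone-starved or mutant embryos were compared. The lists hold no read counts, so the depth is unknown. A signal from whole embryos averages over tissues and stages, and binding in fewer cells cannot be told apart from weaker binding per cell.

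Ecdysone is the steroid hormone that times moulting and metamorphosis in insects, and a pulse of it also occurs in the embryo. It binds EcR, a nuclear receptor that works as a dimer with usp, the fly counterpart of the vertebrate retinoid X receptors. The dimer switches on early genes, among them Eip75B, Eip74EF and br, whose products act on later genes, and further nuclear receptors such as Hr4 and ftz-f1 set the order of the steps. kay pairs with the Jun protein Jra to form the AP-1 factor, which is known in the fly embryo for its part in dorsal closure.

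kay peaks were spread unevenly over the 10 genes. Hr4 had 10 IDR peaks, Eip75B had 8, Eip74EF had 5, EcR had 3 and ftz-f1 had 2. usp, Eip78C and br had 1 each, and Hr38 and Hr39 had none. Hence 8 of 10 genes had a peak, against 37.5% of all protein-coding genes in windows built the same way. The share is read with gene length in mind, since 9 of the 10 windows were at least 28.4 kb long. Of the 904 protein-coding genes with windows that long, 492 (54.4%) had a peak, and their median was 1 peak per gene. These genes share a minimum length and are not matched in length to the 10 genes, whose windows reach 119.7 kb. usp, with a window of 9.51 kb, is outside this class. Hr4, Eip75B and Eip74EF reached 5 or more peaks, against 0.717% of all genes and 74 (8.19%) of the 904 long ones. Eip74EF reached 5 only with 2 summits of a single region outside the gene, and its peaks formed 4 clusters of overlapping regions.

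**Figure D1:**
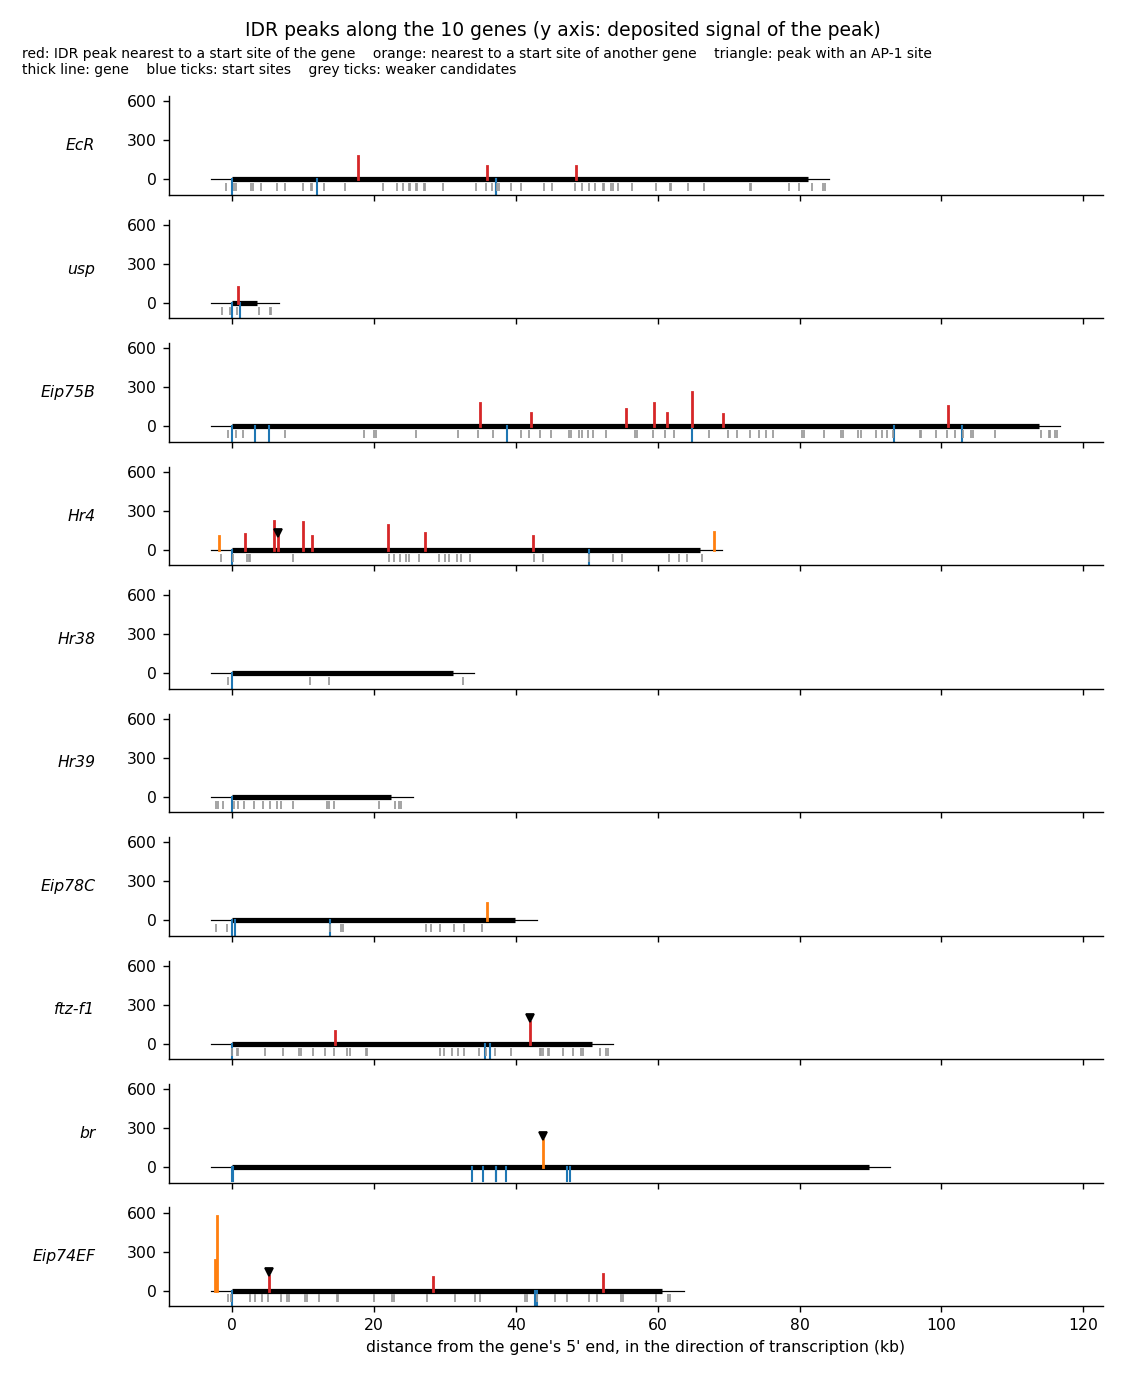
IDR peaks along the 10 genes, drawn in the direction of transcription with the distance from the 5' end in kb on the x axis and the deposited signal on the y axis. The 8 peaks at Eip75B and the 10 at Hr4 are spread along the genes, the tallest line stands upstream of Eip74EF at 574.9, and Hr38 and Hr39 carry grey ticks (weaker candidates) only.

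Counted per length, the windows held 0.501 IDR peaks per 10 kb over 619 kb in all, against 0.288 per 10 kb over the chromosome arms, genes and gene-free sequence together. Over all protein-coding genes in windows built the same way, most of them shorter, the mean was 0.545 and the median 0 per 10 kb. The highest densities were 1.39 per 10 kb at Hr4 and 1.05 per 10 kb at usp, where the value rests on 1 peak in a 9.51 kb window. Eip74EF, with both summits of that outer region counted, had 0.750 and Eip75B 0.668 per 10 kb. EcR, with the third longest window, had 0.344. The median of the 10 genes was 0.348 per 10 kb and that of the 904 long genes was 0.142.

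**Figure D2:**
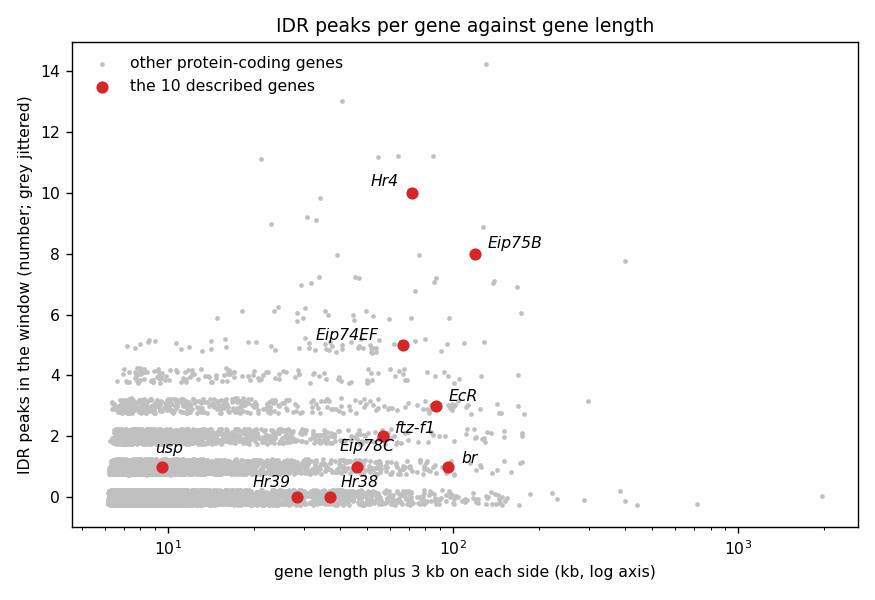
Number of IDR peaks (y axis) against the length of the gene plus 3 kb on each side (x axis, kb, log scale) for all protein-coding genes (grey) and the 10 described genes (red). Hr4 with 10 peaks and Eip75B with 8 stand near the top of genes of their length, while br, at a similar length, has 1.

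Below the IDR list lies a longer list of 30000 candidates, called by the authors on both replicates pooled, of which the 3860 strongest by signal are the IDR peaks. It is labelled as peaks and background, the input of the IDR procedure, and each replicate's list also holds 30000 regions. A candidate below the IDR list is therefore not taken as a bound region. The 10 genes held 279 candidates, or 4.51 per 10 kb against 2.24 over the arms. Of the 279, 11.1% were IDR peaks, against 12.9% of all candidates. The share differed from gene to gene. At Hr4 10 of 37 candidates were IDR peaks (27.0%), at Eip75B 8 of 67 (11.9%), and at EcR 3 of 57 (5.26%).

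The sequences at the AP-1 sites are shown first, since AP-1 sites are the DNA elements that kay is known to bind. A site was read as TGACTCA or TGAGTCA, which are the same element on opposite strands, anywhere in the full width of a peak. Among the 31 peaks, 4 held a site, each at a different gene. They are given 5′ to 3′ on the plus strand of dm6 with 20 bases on each side, at X:1948343-1948389 (Hr4), 3L:18759507-18759553 (ftz-f1), X:1618694-1618740 (br) and 3L:17614012-17614058 (Eip74EF), with the site in capitals.
Hr4: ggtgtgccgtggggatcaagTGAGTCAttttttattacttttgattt
ftz-f1: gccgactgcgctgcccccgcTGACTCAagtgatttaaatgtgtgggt
br: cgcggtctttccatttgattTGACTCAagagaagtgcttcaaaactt
Eip74EF: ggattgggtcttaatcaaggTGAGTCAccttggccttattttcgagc
All 4 sites lay in introns. The site at Hr4 was 3 bp from the summit of its peak, and the others were 102 bp (Eip74EF), 127 bp (ftz-f1) and 170 bp (br) from theirs.

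The share of peaks with such a site was 12.9% (4 of 31; exact binomial 95% interval 3.63 to 29.8%), and over all IDR peaks it was 11.7% (452 of 3860; 10.7 to 12.8%). The share at the 10 genes was near that of the whole list. With any base in the middle position (TGANTCA), which includes the sites above, 6 of 31 peaks (19.4%) and 788 of 3860 (20.4%) held a match. The added matches were both at Eip75B. Intervals here cover counting error alone.

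EcR, the receptor of the hormone itself (FBgn0000546, dm6 2R:6087873-6169087, minus strand), had 3 IDR peaks, all in introns. The strongest had rank 1253 and signal 176.8, with ranks of 1218 and 1355 in replicates 2 and 4. It lay 5805 bp from the start site of transcripts RD and RE. The others, at ranks 3344 and 3429, were among the weakest 25% of the IDR list. The first of these ranked 3929 in replicate 2 and 3577 in replicate 4, and its summit was 1250 bp from the start shared by RB and RC. The second ranked 3326 and 5135, and lay 11271 bp from the RG start.

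None of the 4 EcR start sites had an IDR summit within 500 bp. The strongest candidate at a start site was at rank 6412, beside both the RG and the RB and RC starts, and the RA start had one at rank 13437. EcR thus carried many candidates (57, or 6.54 per 10 kb), of which 3 were IDR peaks. In all, 233 protein-coding genes had more IDR peaks than EcR.

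usp (FBgn0003964, X:2038798-2042311, minus strand) encodes the partner of EcR and is the shortest of the genes at 3.51 kb. Its IDR peak, X:2041274-2041729, had its summit 190 bp upstream of the start of transcript RA and 809 bp from that of RB. The peak ranked 2485 in the pooled list with a signal of 123.3, and 2457 and 2339 in replicates 2 and 4. Its place in the order was thus nearly alike in both libraries. The next IDR peak was 5753 bp beyond the gene, at rank 1371, and was not counted.

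Eip75B (FBgn0000568, 3L:17950953-18064696, minus strand) encodes a haem-binding nuclear receptor related to vertebrate Rev-erb, and is an early target of the hormone. It is 113.7 kb long and has 7 annotated start sites, which give isoforms with different N-termini. Its strongest peak, at 3L:17999622-18000077, lay at the RC start, with the summit 29 bp upstream. The 150 bases before that start (3L:17999822-17999971, 5′ to 3′ on the minus strand) are shown because this was, with the peak at usp, 1 of the 2 peaks at a start site of the genes themselves. The 7 bases around the summit are in capitals.
Eip75B-RC: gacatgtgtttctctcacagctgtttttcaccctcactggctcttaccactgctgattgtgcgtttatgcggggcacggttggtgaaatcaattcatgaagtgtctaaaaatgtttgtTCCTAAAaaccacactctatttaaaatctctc
The peak ranked 535 with a signal of 263.5, and 465 in replicate 2 and 816 in replicate 4. The peak held no AP-1 site in its 456 bp.

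The other 7 peaks at Eip75B were intronic and ranked from 1238 to 3834. Of all 8, 5 lay within 10 kb of the RC start, namely those at ranks 535, 1239, 2052, 3471 and 3834. Peaks at ranks 1238 and 3446 lay 3754 and 3476 bp from the RG start, on either side of it, and the peak at rank 1653 was 1924 bp upstream of the RD start. The RB, RE and RF starts at the 5′ end of the gene had no candidate within 500 bp, and the nearest IDR summits were 29812, 31667 and 34910 bp from them. The IDR peaks at this gene were thus nearest to the RC, RG and RD starts, and only the RC start had a summit within 500 bp. The RA start, also internal, had its nearest IDR summit 7701 bp away.

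The replicates ranked the Eip75B peaks unequally. In 7 of 8 the rank was better in replicate 2, for example 845 against 3017 for the peak at rank 1238 and 886 against 2370 for that at 1239. The exception was the peak near the RD start, at 1943 in replicate 2 and 1742 in replicate 4. The weakest, at pooled rank 3834, ranked 4297 and 5838, and it was the 1 peak of the 31 outside the strongest 3860 regions of both replicates. Only 13 protein-coding genes had more IDR peaks than Eip75B. A candidate at rank 3923, just under the last IDR rank, was among the strongest 3860 regions of both replicates at ranks 2675 and 3858. It held an AP-1 site, and its summits in the replicates lay 988 and 805 bp from the RD start.

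**Figure D3:**
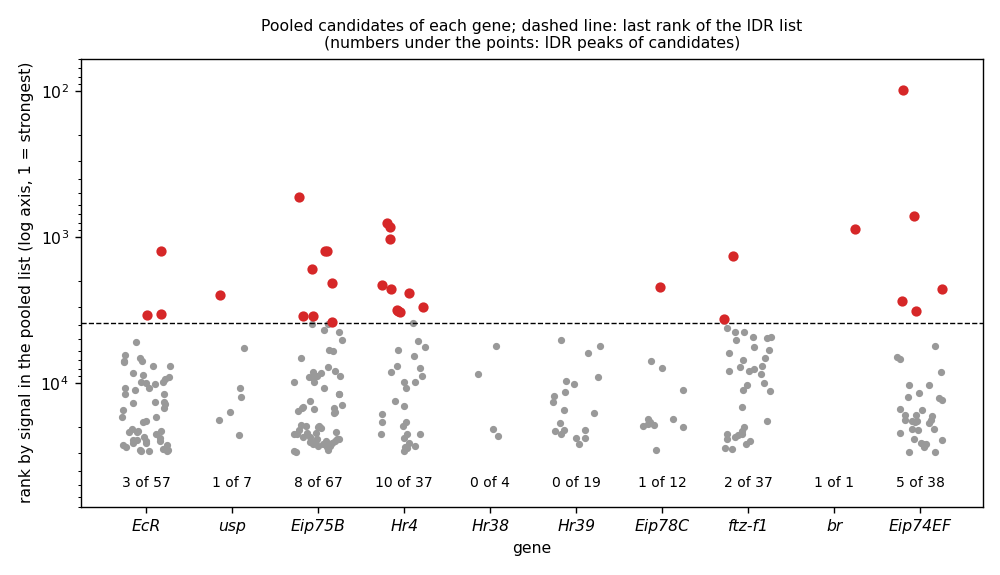
Rank by signal of each gene's pooled candidates (y axis, log scale, rank 1 at the top) by gene (x axis), with IDR peaks in red above the dashed line at rank 3860. Hr39 has 19 candidates and EcR 57, most of them far below the line, while 10 of the 37 at Hr4 are above it and br has a single candidate.

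Eip74EF (FBgn0000567, 3L:17558672-17619325, minus strand), an early gene for ETS-type transcription factors, had 5 IDR peaks in 4 clusters of overlapping regions. The strongest of the 31 peaks stood here, at rank 99 with a signal of 574.9, and ranked 78 in replicate 2 and 130 in replicate 4. It lay outside the gene, 2232 bp upstream of its 5′ end and 52 bp from the start of Vps60. A second summit in the same region, at rank 717 and signal 233.4, was 210 bp away and 57 bp from the start of anchor. Both were nearer to those genes than to Eip74EF, so their assignment rests on the 3 kb window.

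The 3 peaks inside Eip74EF were intronic. The peak at rank 2721, which holds the AP-1 site shown above, lay 5188 bp downstream of the start shared by RA, RC and RE, and ranked 3553 and 2200 in replicates 2 and 4. The peak at rank 2252 ranked 2396 and 2181, and lay 9249 bp from the RD start. The peak at rank 3200 was seen mainly in replicate 4, at 2303, against 5852 in replicate 2. At each of the 3 start sites of the gene the strongest candidate was weak, at rank 18480 or 20850. In total 46 protein-coding genes had more IDR peaks.

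br (FBgn0283451, X:1575132-1664869, plus strand), an early gene for BTB zinc-finger proteins, was nearly empty. Its 95.7 kb window held 1 candidate, and this was an IDR peak at rank 887 with a signal of 211.7. Its ranks in replicates 2 and 4 were 786 and 1068. The peak is intronic, holds an AP-1 site, and lies 3421 bp upstream of the RS start. The start of another gene, Mur2B, is nearer, at 732 bp. None of the 9 br start sites had a candidate within 500 bp. The replicate lists held 4 and 2 candidates in the window. Windows of at least 28.4 kb with at most 1 candidate were found at 148 of the 904 long genes (16.4%). Many of those windows may be shorter than that of br, and windows of its length were not counted apart. At least 1 longer window, that of Gfrl at 112.1 kb, held no candidate. How rare so empty a window is at that length was not worked out here.

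Hr4 (FBgn0264562, X:1941940-2007956, plus strand) encodes a nuclear receptor known from larvae as a repressor of early hormone-induced genes, and had the most peaks of the genes described. Only 6 protein-coding genes had more than its 10. Of these, 8 were in the gene, all in introns and all between its 2 start sites, which lie at the 5′ end and inside the gene. The 3 strongest ranked 805, 852 and 1037 with signals of 221.1, 215.7 and 193.9. In replicate 2 they ranked 782, 940 and 1125, and in replicate 4 964, 851 and 847. All 3 were thus strong in both libraries. They lay 5802, 9963 and 21934 bp downstream of the 5′ start.

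The AP-1 site of Hr4 stands in the peak at rank 3180, X:1948135-1948590, and this peak ranked high in a single library. Its rank was 1639 in replicate 4 but 14407 in replicate 2, the widest gap among the 31 peaks when regions were matched by overlap. With summits matched within 100 bp the gap was wider for the Eip75B peak at rank 3446, at 1688 in replicate 2 and 28730 in replicate 4, and 5 of the 31 peaks had no match in a replicate. Its summit is 621 bp from that of the strongest Hr4 peak, which is 190 bp wide and holds no such site. The remaining intronic peaks ranked from 2272 to 3236. At rank 2272 the replicates ranked 1738 and 4606, and at rank 3236 they ranked 4678 and 2685.

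The outer peaks of Hr4 lay within 500 bp of start sites of its neighbours, and which gene they act on was not tested. The peak at rank 2136 lay 1851 bp beyond the 3′ end and 443 bp from the start of PIG-K. The peak at rank 3221 lay 1841 bp before the 5′ end and 59 bp from the start of CG3857. In replicate 4 the region overlapping it had its summit nearest to another start, that of CG3587, at 103 bp. At the Hr4 start sites themselves no IDR summit was within 500 bp, and the candidates there ranked 14311 and 9855. A candidate at rank 3888, with a signal of 93.0, just missed the list. The lowest signal in the IDR list was 93.6.

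ftz-f1 (FBgn0001078, 3L:18750607-18801309, minus strand) encodes an orphan receptor of the SF-1 and LRH-1 type, which acts as a competence factor for the hormone. It had 2 IDR peaks among 37 candidates, both in introns. The stronger, at rank 1343 with a signal of 170.2, ranked 1287 and 1540 in replicates 2 and 4. It holds the AP-1 site shown above and lies 5553 bp downstream of the RA start. The weaker, at rank 3634, ranked 3344 and 3766 and lies 14498 bp from the RB start. Further regions of the gene were just below the list. The candidates at ranks 4221 and 4451 were among the strongest 3860 regions of both replicates, at 3660 and 3728 for the former and at 3733 and 3641 for the latter.

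Eip78C (FBgn0004865, 3L:21226609-21266503, plus strand), a relative of Eip75B, had 1 peak at rank 2196 with a signal of 132.3, which ranked 2469 and 1718 in replicates 2 and 4. It is intronic, 22235 bp from the nearest start of Eip78C, and 4562 bp from the start of CG43218. Next in the window came a candidate at rank 7105.

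Hr39 (FBgn0261239, 2L:21237250-21259675, plus strand), a second receptor of the ftz-f1 type, had 19 candidates and no IDR peak. Its best candidate, at rank 5100 with a signal of 77.9, lay at its start site. That region ranked 2843 in replicate 4, 65 bp from the start, and 8476 in replicate 2. Hr39 would thus count as bound at its promoter from replicate 4 alone and not from replicate 2.

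Hr38 (FBgn0014859, 2L:20683462-20714588, minus strand) encodes the fly NR4A receptor, which can also pair with usp. It had 4 candidates and no IDR peak. The best candidate had rank 5588 and a signal of 73.0. In replicate 2 the region there ranked 3132, with its summit 660 bp upstream of the start site and an AP-1 site in its width. The region of replicate 4 that overlaps it ranked 26957. The nearest IDR peak was 27108 bp from the gene. Neither Hr38 nor Hr39 thus had a region that was strong in both libraries.

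Across the genes, kay peaks were in introns more often than at promoters. Of the 31 summits, 25 were intronic and 6 (19.4%) were within 500 bp of a start site. Over all IDR peaks 2112 (54.7%) were promoter peaks, and in the windows of the 904 long genes 444 of 1191 (37.3%) were. Those long genes share a minimum length and are not matched in length to the 10 genes. The intronic share of all IDR peaks was not counted, so the 25 intronic summits have no such share beside them. Of the 6 promoter summits, 4 were at promoters of other genes, namely PIG-K, CG3857, Vps60 and anchor, and 2 were at promoters of usp and Eip75B. Therefore 2 of 35 start sites of the 10 genes (5.71%) had an IDR summit within 500 bp, against 17.2% of all start sites. From the strongest regions of replicate 4 alone, without replicate 2, the count was 4, with the Eip75B RA start and the Hr39 start added, and from those of replicate 2 alone it was 2. Counted by gene this was 2 of 10, against 18.8% of genes. Candidates of any strength, IDR peaks included, lay within 500 bp of 17 of the 35 start sites (48.6%), against 52.8% of all start sites.

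The distance from a summit to the nearest start of its own gene ran from 29 bp at Eip75B to 23159 bp at Hr4, with a median of 5553 bp. It was within 5 kb for 13 peaks and within 10 kb for 23. For 25 of the 31 peaks the nearest start site was one of the gene itself. The other 6 were the 4 promoter peaks of neighbours and the peaks in Eip78C and br.

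By strength the 31 peaks leaned to the weaker side of the list. Their median rank was 2252 of 3860, and their median signal was 130.0 against 141.3 for all IDR peaks. The strongest 25% of the list (965 peaks) held 6 of them (19.4%), namely 2 summits of a single region at Eip74EF, 2 at Hr4 and 1 each at Eip75B and br. The weakest 25% held 11 of the 31.

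The replicates were compared by rank, since the scaling of the signal between them is not stated. All 31 peaks overlapped a candidate in both lists. The Eip74EF peaks at ranks 99 and 717 share their coordinates, so both took the ranks 78 and 130 and each enters the values below. By summits within 100 bp, the one at rank 717 ranked 467 in replicate 2 and had no match in replicate 4. In each list 26 (83.9%) were among the strongest 3860, against 88.8% of all IDR peaks in replicate 2 and 87.7% in replicate 4. In both at once there were 22 (71.0%), against 2990 of 3860 (77.5%). The ranks were within 2-fold of each other for 24 peaks (77.4%), against 77.6% of all peaks. Spearman's rho between the ranks was 0.54 over the 31 peaks, 0.60 without the Hr4 peak at rank 3180, and 0.72 over 3854 IDR peaks found in both lists. With summits matched within 100 bp it was 0.51 over 26 of the 31 peaks. The peaks share their libraries and are not independent samples.

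**Figure D4:**
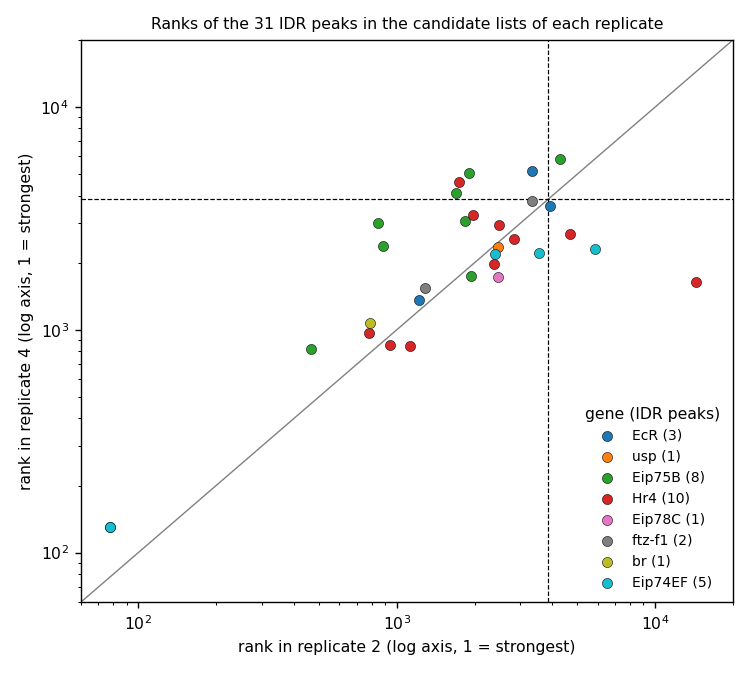
Rank of each of the 31 IDR peaks in the candidate lists of replicate 2 (x axis) and replicate 4 (y axis), both on log scales, with dashed lines at rank 3860. Eip75B (green) lies mostly above the diagonal, with better ranks in replicate 2, and the Hr4 peak at 14407 in replicate 2 and 1639 in replicate 4 stands apart on the right. The Eip74EF peaks at ranks 99 and 717 share a region and fall on the same point, at 78 and 130.

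Other short elements were counted in the full width of the peaks, on both strands. AGGTCA, a single arm of a nuclear receptor site, was in 8 of 31 peaks (25.8%) and in 324 of all 3860 (8.39%). Those 8 were spread over EcR, Eip75B, Hr4, ftz-f1 and Eip74EF. Among summits over 500 bp from a start site the shares were 8 of 25 (32.0%) and 165 of 1748 (9.44%). In the strongest regions of single replicates the shares at the 10 genes were 28.1% (replicate 2) and 18.2% (replicate 4), against 9.12% and 7.46% of all regions taken there. In weaker candidates it was 27 of 248 (10.9%), against 10.2% of all weaker ones. The shares of these genes and of the whole list were thus apart in the peaks and close in the weaker candidates, a difference that was not tested.

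The extended form AAAGGTCA, the element that Hr38 binds, includes AGGTCA and was in 2 of the 31 peaks (6.45%) against 37 of 3860 (0.959%). Both copies are printed 5′ to 3′ on the minus strand with 20 bases on each side and the element in capitals. They are matches to the element within the width of a kay peak, and binding of Hr38 there was not measured. They lie at X:1952908-1952955 (Hr4, peak at rank 2993, 195 bp from the summit) and 3L:17567083-17567130 (Eip74EF, peak at rank 2252, 35 bp from the summit).
Hr4: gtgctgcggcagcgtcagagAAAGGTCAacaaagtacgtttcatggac
Eip74EF: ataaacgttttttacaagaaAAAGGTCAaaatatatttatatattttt
A match is a run of letters and not a measured binding site. TCAAGGTCA, the element of ftz-f1 and Hr39, was in none of the 31 and in 11 of 3860 peaks (0.285%). A perfect ecdysone response element, read as AGGTCA and TGACCT with 1 base between, was in no IDR peak at all.

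GAGAGAG, a repeat bound by GAGA factor, was in 10 of 31 peaks (32.3%) and in 503 of 3860 (13.0%). It occurred at EcR, Eip75B, Hr4, ftz-f1, br and Eip74EF, and in 42 of 248 weaker candidates (16.9%) against 8.0% of all weaker ones. In single replicates the share was 21.9% against 14.8% in replicate 2 and 30.3% against 11.4% in replicate 4. The DNA replication-related element TATCGATA was in none of the 31 peaks and in 6.99% of all, or 0.629% of those over 500 bp from a start site. The cAMP response element TGACGTCA (1.58% of all) and the Zelda element CAGGTAG (2.38%) were in none either. The GC content of the peaks was 43.2% in the median, against 39.0% for all IDR peaks, and its part in the shares above was not tested.

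**Figure D5:**
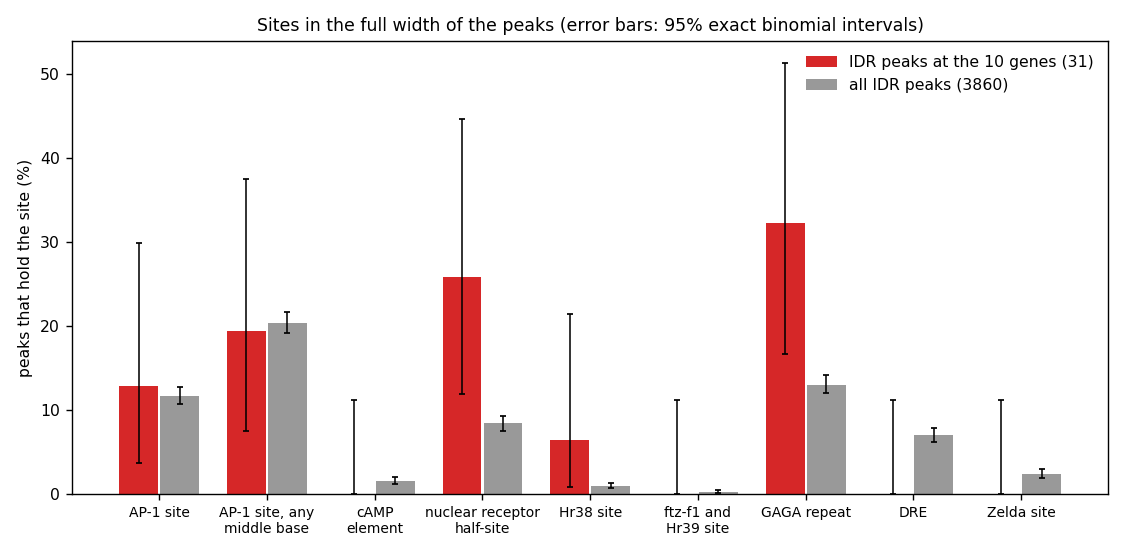
Share of peaks that hold each short element (y axis, percent) among the 31 IDR peaks of the 10 genes (red) and all 3860 IDR peaks (grey), with exact binomial 95% intervals as error bars. The AP-1 bars are level at 12.9% and 11.7%, while AGGTCA stands at 25.8% against 8.39% and GAGAGAG at 32.3% against 13.0%.

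Other genes of the pathway were counted in 4 lists of 59 genes, in the same windows. The shares of these lists are set beside that of all genes without matching for gene length. Of 10 other nuclear receptors, 7 (70.0%) had an IDR peak, against 37.5% of all genes. They held 15 peaks, none with an AP-1 site, against 11.7% of all IDR peaks. The strongest was an intronic peak in the window of Hr3, an early-late receptor that acts between the early genes and ftz-f1, at rank 82 with a signal of 626.3, and it ranked 90 and 77 in replicates 2 and 4. The nearest start site to it was that of CG46321, at 7899 bp. Hnf4, a regulator of lipid metabolism, followed among those nearest to their own start, at rank 672 and 262 bp. The strongest peak of Hr96, at rank 299, was at the promoter of EMC6, and that of Hr51, at rank 1840, was nearest to unc-5. The peak of Hr83, at rank 3789, was at the promoter of Pak.

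Of 18 other ecdysone-induced genes, 12 (66.7%) had a peak, against 37.5% of all genes. An AP-1 site was in 3 of their 26 peaks, against 11.7% of all IDR peaks. Sox14, a transcription factor needed at metamorphosis, had the strongest, at rank 14 with a signal of 1108 and 289 bp from its start, and ranks of 11 and 29 in the replicates. E23, a transporter that lowers the hormone response, had one at rank 128, 204 bp from its start. Kr-h1, the mediator of juvenile hormone, and the kinase gene Eip63E had intronic peaks at ranks 261 and 275, the former nearest to the start of CG45075. The strongest peaks of MsrA (Eip71CD), Cth (Eip55E), ImpE3 and ImpL2 were also nearest to other genes, namely CG7841, Sec6, CG2747 and CG46460. Eip93F, ImpE1 and crol were among those with none.

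Of 13 receptor partners and coregulators, 8 (61.5%) had a peak, against 37.5% of all genes. An AP-1 site was in 2 of their 16 peaks, against 11.7% of all IDR peaks. The strongest stood at alien (rank 173, at the promoter of CG18661), at the juvenile hormone receptor gce (rank 243), at TP53INP (rank 323) and at the corepressor Smr (rank 485). The strongest peaks of Hsp83, Met and mbf1 were nearest to the starts of gry, Ptp10D and Mipp1. The coactivator gene tai had 47 candidates and no peak.

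Of 18 genes of hormone synthesis and uptake, 3 (16.7%) had a peak, below the 37.5% of all genes. These were sad, an enzyme of ecdysone synthesis, Ptth, the brain hormone that starts synthesis, and Oatp74D, the importer of ecdysone. Their strongest peaks, at ranks 845, 978 and 1156, were at the promoters of CG6962, cold and CG7564. None of the 4 peaks in this list held an AP-1 site.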

How the data were processed

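The deposited files used are narrowPeak lists in dm6: candidates for each replicate, candidates for both pooled, and the IDR-thresholded list. The signal of each region is the authors' own value, and its scaling between libraries is not given in the sources used here. The peak caller and aligner are also not given in the sources used here. The dm3 lists were not used. The summit is the deposited start plus the deposited offset, written 1-based.

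Genes and start sites came from Ensembl release 115, and sequences from the RefSeq dm6 genome. Regions were ranked by signal within each list. The replicate rank of a peak is that of the strongest candidate overlapping it by at least 1 bp. Clusters are chains of IDR peaks overlapping by 1 bp. A promoter summit lay within 500 bp of a start site.

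The 10 genes, the 4 pathway lists and the motifs were chosen with earlier results of these data known. All 10 genes are named, each with its strongest region, as are peaks with an AP-1 site and up to 4 genes per pathway list with the strongest peak. Some further regions and genes were named after their values were seen. For the 3 genes with the most peaks, the 2 genes with a number of peaks within 1 and the closest window length are also named. All 59 pathway genes matched, 7 of them through a current symbol. No test was run, since there is 1 group. Alternatives changed the threshold, window, clusters, motif, start-site window and library. Counting code was tested on simulated data. Python 3.11.15, pandas 2.3.3, numpy 2.4.6, scipy 1.17.1 and matplotlib 3.10.9 were used.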

Additional observations from a re-analysis of the deposited data

How the results depend on the processing

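Of 54 alternatives, 40 stayed within set limits, which were 1.5-fold for a count, the exact 95% interval for a share of peaks, 1 SD of the values from the replicates alone for a density, and 0.05 for rho. These limits are wide for small counts and narrow for the density, so 40 includes 6 genes against 8, 3 start sites against 2 (1 kb window) and 19.4% against 12.9% with an AP-1 site (TGANTCA). The 14 others follow. With the strongest 50% of IDR peaks the genes had 12 peaks in 11 clusters, 0.194 peaks per 10 kb and 1 bound start site, and rho between the replicates was 0.628 over 12 peaks; 6 genes kept a peak. The density was 0.483 per 10 kb in gene bodies alone, 0.466 with 1 kb flanks, 0.461 with 10 kb flanks and 0.485 with 1 peak per cluster. An AP-1 site within 50 bp or 100 bp of the summit was found in 3.23% of peaks, at Hr4 alone. No share of all IDR peaks is given for these narrower windows. The value is therefore not to be set beside the full-width share of the whole list. With only 1 replicate's strongest regions (leaving out either library in turn) the counts were 32 to 33 peaks in 9 genes and 31 to 33 clusters, 0.517 to 0.533 per 10 kb, 15.2 to 15.6% with an AP-1 site, and 2 to 4 bound start sites, 4 of them from replicate 4. The gene added was Hr38 from replicate 2 and Hr39 from replicate 4. The AP-1 shares from single replicates are also given without the share of all regions taken there. Counting just peaks nearest to a start site of the gene itself, an alternative chosen after seeing the data together with those on AGGTCA and GAGAGAG, left 25 peaks in 6 genes. The cause of these shifts was not tested beyond what each change of list or window does by construction. No paired analysis was possible because every sample belongs to 1 group. The depth is unknown, and 2 replicates measure the spread poorly.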

Other observations

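Genes with a like number of IDR peaks in a window of like length were sought for the 3 genes with the most peaks, over the 2 replicates pooled. Near Hr4 (10 peaks in 72.0 kb) came ush, a zinc-finger cofactor of GATA factors, with 10 in 70.3 kb, and shn, a zinc-finger protein of Dpp signalling, with 11 in 64.3 kb, out of 10 genes with such a count. Near Eip75B (8 in 119.7 kb) came Svil with 9 in 127.6 kb and hth, a homeodomain cofactor, with 7 in 138.0 kb, out of 18. Near Eip74EF (5 in 66.7 kb) came CG12535 with 4 in 67.0 kb and lola, a BTB zinc-finger gene, with 4 in 67.4 kb, out of 204.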
